A study of Mus musculus with 18 samples.

Results

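The genes described here encode the nuclear subunits of respiratory complexes II to V, with cytochrome c and the ATP synthase inhibitor, in microglia, astrocyte and neuron fractions of mouse frontal cortex. Members were chosen by symbol from a count table of 56883 gene rows. The rule took Sdha to Sdhd, every symbol starting with Uqcr, Cox4 to Cox8 or Atp5, and Cyc1 and Cycs, and left out 3 symbols ending in -ps. It gave 50 genes: 4 of complex II, 9 of complex III, 18 of complex IV, 18 of complex V and cytochrome c (Cycs).

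Electrons from complex II reach cytochrome c through complex III, and complex IV hands them to oxygen. Complex V, the ATP synthase, uses the proton gradient that complexes III and IV help to build. Complex II is encoded wholly in the nucleus, whereas complexes III, IV and V each also hold subunits encoded by the mitochondrial genome. Complex IV has the most isoforms: several of its small subunits come as a common form and a form best known from muscle, lung or testis. Neurons are known for a heavy use of oxidative phosphorylation, and microglia can shift between oxidative and glycolytic metabolism.

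The strain was B6;D2-Tg(S100B-EGFP)1Wjt/J, and every group thus carried EGFP under the S100B promoter. The mice received 14 daily intraperitoneal injections, from postnatal day 60 to 74, of vehicle or of an antipsychotic drug, which was 1 mg/kg of risperidone or 10 mg/kg of clozapine, and were killed on postnatal day 75. The labels give both sexes in one place and males in another. Cortices of 5 animals were pooled per sample, and each treatment had 2 pools, labelled batch 1 and batch 2. Each of the 6 pools was panned in turn on antibody-coated dishes: endothelial cells were removed, CD45+ microglia collected, oligodendrocyte-lineage cells removed, and Thy1+ neurons and HepaCAM+ astrocytes collected. This gave 18 libraries in 9 groups of 2, with a fraction and a treatment defining each group.

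Libraries held 4714468 to 13391163 counts. Levels are given as CPM, counts scaled to a common library total with TMM factors, or, when genes are compared, as TPM, which also divides by exon length. The 17 microglial markers found summed to 5731 to 12070 CPM in the microglia fraction, 519.0 to 1429 CPM in the astrocyte fraction and 93.2 to 1746 CPM in the neuron fraction. The 16 astrocyte markers summed to 11980 to 26000 CPM in astrocytes and 4835 to 12330 CPM in neurons. The 17 neuronal markers summed to 6808 to 16970 CPM in neurons and 1273 to 6001 CPM in microglia. No fraction was free of the others' markers, and the ranges of the astrocyte markers in astrocytes and neurons overlapped. The 14 oligodendrocyte markers summed to 7551 to 44570 CPM in astrocytes and 7919 to 39250 CPM in neurons, above 528.0 to 2935 CPM in microglia. In such bulk fractions, fewer cells of a type and less RNA per cell cannot be told apart. The 37 features of the mitochondrial genome had 0 counts in every library, so the mitochondrially encoded subunits were not analysed here.

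Promoters are shown for 4 members that span the range of differences between microglia and neurons: the 3 with the lowest microglial level relative to neurons that have an entry in the RefSeq table (Cox8a, Cox6a1 and Cox5b), and, tissue-restricted isoforms aside, the 1 nearest to no difference (Atp5mc2). Each run covers 250 bases before to 50 bases after the gene start in build GRCm38.p6, on the strand of the gene. Cox8a lies at chr19:7217567-7217866 on the minus strand and Cox6a1 at chr5:115348909-115349208 on the minus strand. Cox5b lies at chr1:36691237-36691536 on the plus strand, and Atp5mc2, listed there as Atp5g2, at chr15:102670998-102671297 on the minus strand. Capitals mark matches, on either strand, to GCGC, any base and TGCGC in a row, a core of the motif of nuclear respiratory factor NRF1, and to CCGGAAG, a core of the ETS motif that GABP reads.
Cox8a: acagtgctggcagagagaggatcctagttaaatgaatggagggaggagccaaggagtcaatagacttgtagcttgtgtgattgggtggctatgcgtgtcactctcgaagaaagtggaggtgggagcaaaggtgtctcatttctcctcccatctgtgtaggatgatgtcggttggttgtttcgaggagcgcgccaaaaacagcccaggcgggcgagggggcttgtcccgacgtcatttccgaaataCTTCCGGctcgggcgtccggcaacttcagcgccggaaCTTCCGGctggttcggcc
Cox6a1: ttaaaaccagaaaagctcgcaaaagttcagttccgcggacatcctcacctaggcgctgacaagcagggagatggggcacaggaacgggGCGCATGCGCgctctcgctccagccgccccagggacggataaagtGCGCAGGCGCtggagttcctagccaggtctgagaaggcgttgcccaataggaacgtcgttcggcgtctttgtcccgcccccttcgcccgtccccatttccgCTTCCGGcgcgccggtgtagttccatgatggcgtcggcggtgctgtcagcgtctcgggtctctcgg
Cox5b: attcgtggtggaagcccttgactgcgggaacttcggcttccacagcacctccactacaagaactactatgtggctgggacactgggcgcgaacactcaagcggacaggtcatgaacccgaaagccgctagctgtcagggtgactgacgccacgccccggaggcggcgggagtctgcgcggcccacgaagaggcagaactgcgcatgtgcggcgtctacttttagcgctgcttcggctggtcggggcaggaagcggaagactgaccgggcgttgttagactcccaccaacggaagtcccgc
Atp5mc2: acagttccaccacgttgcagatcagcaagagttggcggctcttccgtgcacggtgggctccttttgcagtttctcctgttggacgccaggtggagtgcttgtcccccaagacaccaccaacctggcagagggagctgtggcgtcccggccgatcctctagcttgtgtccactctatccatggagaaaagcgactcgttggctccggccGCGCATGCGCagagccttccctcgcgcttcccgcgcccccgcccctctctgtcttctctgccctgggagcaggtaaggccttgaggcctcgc

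The NRF1 core was found in the promoters of 11 of the 37 members with an entry, among them Cox6a1, Atp5mc2, Atp5me and Sdha, and in 4.6% of all 32851 promoters of that length. CCGGAAG was found in 12 of the 37, among them Cox8a, Cox6a1, Uqcr11 and Uqcrh, and in 8.86% of all promoters. Cox5b held neither spelling in this window, and Atp5mc2, which was not called between any fractions, held the NRF1 core. A match is a description of the letters. In all, 8 spellings were searched, some nested in others, and the other 6 were found in 1 to 8 members.

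The summed level of the 50 genes was lowest in microglia in every pool. In microglia it was 2201 and 1972 CPM in the vehicle pools of batch 1 and 2, 2618 and 3270 CPM with clozapine, and 2044 and 1615 CPM with risperidone. In the astrocyte fraction the same sums were 5000 and 2390 CPM with vehicle, 5920 and 4236 CPM with clozapine, and 6818 and 2599 CPM with risperidone. In the neuron fraction they were 5985 and 6731 CPM with vehicle, 8443 and 8719 CPM with clozapine, and 3956 and 7253 CPM with risperidone. Within a pool, the neuron library held 1.94 to 4.49 times the microglial sum, and the astrocyte library 1.21 to 3.34 times. Astrocytes and neurons overlapped, since the neuron sum was 0.58 to 2.82 times the astrocyte sum. In raw counts, the members took 0.223% to 0.324% of a microglia library, 0.331% to 0.57% of an astrocyte library and 0.417% to 0.616% of a neuron library.

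**Figure D1:**
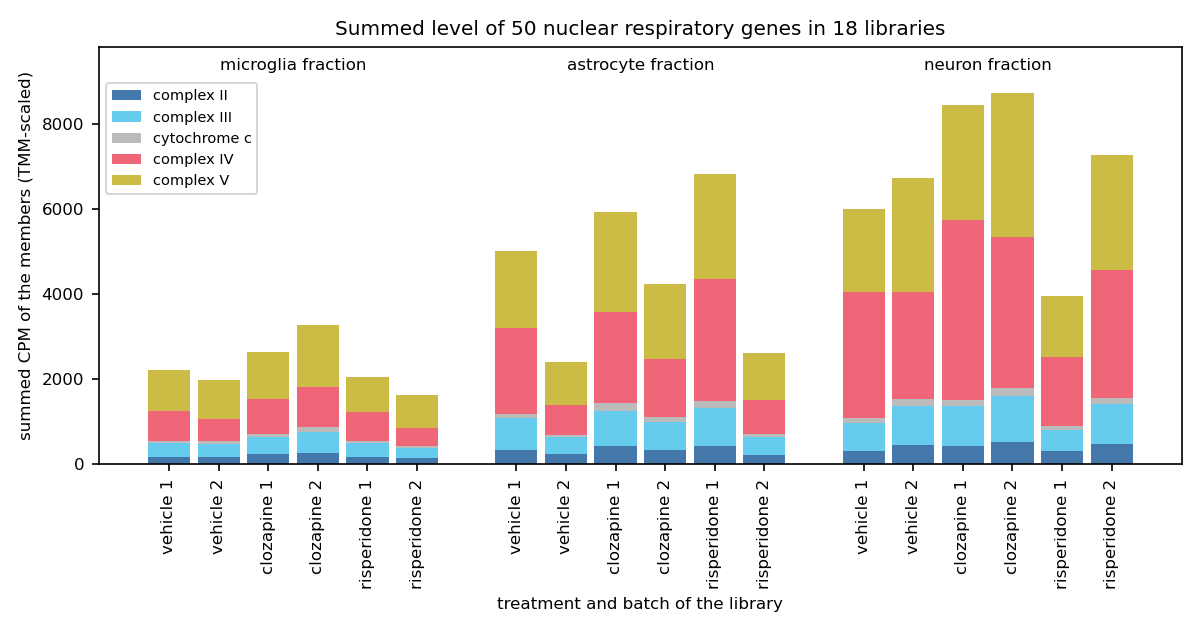
Summed CPM of the 50 genes in each of the 18 libraries, as bars stacked by complex and ordered by fraction, treatment and batch (the number after the treatment). Microglia libraries sit between 1615 and 3270 CPM, below the astrocyte and neuron libraries of the same pool, and the batch 2 astrocyte libraries sit below those of batch 1.

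Differences between fractions were tested with edgeR's quasi-likelihood test over all 18 libraries. Benjamini-Hochberg adjustment ran over 37273 genes, with a call at an adjusted p under 0.05. This test did not use the pairing of fractions by pool, which entered only in an alternative fit with the pool as a block. Of the 50 members, 49 passed the filter on low counts; Cox8b did not. Against neurons, 40 members were lower in microglia and 1 was higher, Cox4i2. Over all genes tested, 18.8% were lower and 28.3% higher. The median difference of the members was -1.15 on the log2 scale, while that of all genes was 0.62. With total counts in place of TMM factors, 29 members were lower and 1 higher, where 9.74% and 38.3% of all genes were. The medians of the members and of all genes were then -0.55 and 1.13. In 35 members the microglia library was below the neuron library in all 6 pools, a pattern seen in 18.8% of all genes.

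Against astrocytes, 24 members were lower in microglia and 0 were higher, where 6.84% of all genes were lower and 6.18% higher. Unadjusted p-values under 0.05 were seen for 0 members higher and 37 lower, where 9.36% and 11.9% of all genes had them. The median difference was -0.95, beside 0.02 for all genes, and 32 members were lower in all 6 pools, against 9.23% of all genes. All 24 of these genes were also among the 40 that were lower than in neurons. The size depended on the batch: the median member differed by -0.92, -1.08 and -1.46 in the vehicle, clozapine and risperidone pools of batch 1, but by -0.34, -0.34 and -0.61 in those of batch 2. Against neurons the same medians were -0.97, -1.17 and -0.73 in batch 1 and -1.52, -1.12 and -1.61 in batch 2. The dissociation-response list of 18 immediate-early and stress genes was higher in microglia, at 4687 to 11750 CPM, than in the other fractions, at 1141 to 3416 CPM, and its part in these differences was not tested.

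Astrocytes and neurons differed less. Relative to neurons, 5 members were lower in astrocytes and 1 was higher, where 9.17% of all genes were lower and 14.6% higher. With the pool as a replicate block, 9 were lower and 0 higher, where 10.1% and 11.5% of all genes were. The sign of the median turned with the scaling, which moved all genes. With total counts in place of TMM factors, 2 members were lower and 6 higher, where 3.9% and 25.9% of all genes were. The members' median went from -0.40 to 0.05. Relative to the median of all genes it was -0.87 with TMM factors and -0.88 with total counts. The comparison also differed between batches, with medians of 0.02, -0.06 and 0.77 in batch 1 and -1.19, -0.77 and -1.05 in batch 2.

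**Figure D2:**
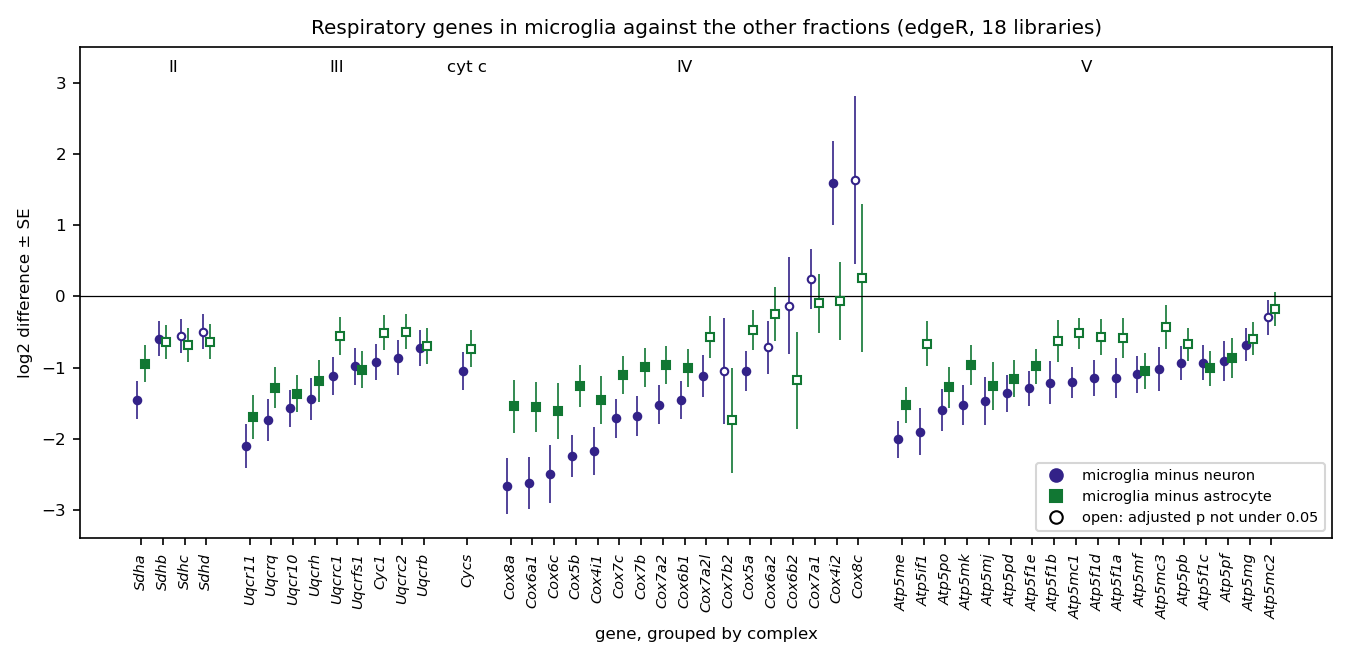
Log2 difference of each tested member between microglia and neurons and between microglia and astrocytes, grouped by complex, with bars of 1 SE from the edgeR fit of 18 libraries; open points were not called. Most points lie below 0, and Cox8a and Cox6a1 of complex IV lie lowest against neurons, at -2.67 and -2.62.

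The 4 complex II subunits, which form succinate dehydrogenase, differed least between microglia and neurons, with a median of -0.57. Sdha, the flavoprotein that oxidises succinate, was lower in microglia than in neurons by -1.46 ± 0.26 (SE; adjusted p = 0.000168, edgeR). Its CPM in the 6 microglia libraries ran from 81.6 to 167, below every neuron value and overlapping 2 of the astrocyte values. Sdhb, the iron-sulfur subunit, was called against neurons at -0.59 with an adjusted p of 0.049 (edgeR), but not with DESeq2, where its adjusted p was 0.139. The membrane anchors Sdhc and Sdhd were not called in any of the comparisons between fractions. With the pool as a block Sdhc passed in both comparisons of microglia, with adjusted p-values of 0.040 against astrocytes and 0.049 against neurons (edgeR). The median TPM of Sdhc and Sdhd was 9.39 and 26.8 in microglia, 14.1 and 37.9 in astrocytes and 10.3 and 25.5 in neurons.

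All 9 complex III genes were lower in microglia than in neurons, with a median of -1.12, and 5 of the 9 were lower than in astrocytes, with a median of -1.03. The lowest against neurons were the accessory subunit genes Uqcr11, Uqcrq, Uqcr10 and Uqcrh, while Uqcrb, another accessory subunit, differed by -0.73 and was not called with DESeq2, where its adjusted p was 0.0648. Against astrocytes the adjusted p of Uqcrb went from 0.084 to 0.042 with the pool as a block (edgeR). Uqcr11, which encodes the smallest of these subunits, had 15.2, 7.62, 18.7, 25.8, 18.8 and 7.07 CPM in microglia (vehicle, clozapine and risperidone, batch 1 before batch 2). In astrocytes it had 58.2, 19.2, 71.1, 43.9, 70.3 and 30.6 CPM, and in neurons 65.4, 68.3, 77.9, 84.8, 38.0 and 57.4 CPM. Microglia were lowest in every pool, and the highest microglia library overlapped the lowest astrocyte library but no neuron library. The difference was -2.10 ± 0.31 (SE) against neurons and -1.70 ± 0.31 against astrocytes, with adjusted p-values of 2.0e-05 and 0.00032 (edgeR). Uqcr10 and Uqcrq, also accessory subunits, differed from astrocytes by -1.37 and -1.29. The core genes Uqcrc1 and Uqcrc2 differed from neurons by -1.12 and -0.86, and were not called against astrocytes. Cyc1, the heme-bearing cytochrome c1, and Uqcrfs1, the Rieske iron-sulfur protein, differed from neurons by -0.92 and -0.99.

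Cycs, the mobile electron carrier between complexes III and IV, had a median of 51.7 TPM in microglia, 75.6 TPM in astrocytes and 69.6 TPM in neurons. It was lower in microglia than in neurons by -1.05 ± 0.26 (SE; adjusted p = 0.0029, edgeR), in all 6 pools. Against astrocytes it was lower in 5 of 6 pools and was not called, with an adjusted p of 0.071 (edgeR). This p became 0.047 with the pool as a block.

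Complex IV had the widest range. Of its 17 tested genes, 11 were lower and 1 higher in microglia than in neurons, with a median of -1.46, and 9 were lower than in astrocytes, with a median of -1.01. Those farthest below neurons were Cox8a, Cox6a1, Cox6c, Cox5b and Cox4i1, the common form of the regulatory subunit 4. Cox8a, the common form of the small subunit 8 (GRCm39 chr19:7192518-7194981, minus strand), had 78.9, 46.7, 88.2, 84.0, 89.5 and 37.9 CPM in microglia, in the same order of libraries. In astrocytes it had 288, 79.2, 263, 142, 375 and 86.2 CPM, and in neurons 453, 330, 704, 537, 256 and 467 CPM. No microglia library reached a neuron library, while 2 batch 2 astrocyte libraries lay among the microglial values. The difference was -2.67 ± 0.39 (SE) against neurons and -1.55 ± 0.38 against astrocytes, with adjusted p-values of 1.9e-05 and 0.0057 (edgeR).

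Cox6a1, the common form of subunit 6A (GRCm39 chr5:115483701-115487040, minus strand), had 43.8, 30.2, 52.8, 55.8, 61.2 and 21.2 CPM in microglia. It had 156, 46.3, 165, 102, 245 and 68.0 CPM in astrocytes, and 315, 222, 434, 329, 139 and 236 CPM in neurons. The groups of microglia and neuron libraries did not overlap, and the difference was -2.62 ± 0.37 (SE; adjusted p = 1.1e-05, edgeR). Cox5b, a subunit that binds zinc, and Cox4i1 followed at -2.24 and -2.17 against neurons. Cox6c and Cox7c, both small membrane subunits, differed by -2.49 and -1.72. Cox5a, on the matrix side of the enzyme, differed by -1.05 and was not called against astrocytes. Of the called genes, Cox5b, Cox6a1 and Cox8a were also lower in astrocytes than in neurons, by -0.98, -1.06 and -1.12, each in 5 of 6 pools.

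By length-scaled level, Cox8a was the highest of the 50 genes in all 3 fractions, with medians of 302 TPM in microglia, 696 TPM in astrocytes and 1282 TPM in neurons. Cox6a1 and Cox4i1 came next in neurons, at 676 and 615 TPM, and their 6-library ranges overlapped (502 to 785 and 455 to 692 TPM). In microglia the genes after Cox8a were Cox6b1, Atp5if1 and Cox4i1, at 201, 198 and 197 TPM, which did not differ beyond their ranges. This order depends on the annotated exon lengths used, such as 619 bases for Cox8a and 3567 for Cox6c. By CPM, Cox6c lay above Cox8a, with medians of 162 and 81.5 in microglia, 452 and 202.5 in astrocytes and 860 and 460 in neurons.

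The tissue-restricted isoforms of complex IV were low throughout. Cox4i2, the form of subunit 4 known from lung, had 0.63 to 2.90 CPM in microglia, 0.48 to 3.48 CPM in astrocytes and 0.11 to 1.75 CPM in neurons, from 1 to 31 counts a library. It was the only tested member called higher in microglia and in astrocytes than in neurons, by 1.59 ± 0.59 and 1.66 ± 0.59 (SE), with adjusted p-values of 0.031 and 0.045 (edgeR). With the pool as a block both calls were lost, at adjusted p-values of 0.056 and 0.052 (edgeR). As a share of the TPM of both subunit 4 genes, Cox4i2 had a median of 3.7% in microglia, 1.39% in astrocytes and 0.318% in neurons.

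Cox6a2, the muscle form of subunit 6A, had medians of 10.4, 12.6 and 13.9 TPM in microglia, astrocytes and neurons and made 7.29%, 3.18% and 2.05% of the pair with Cox6a1. Cox7a1, the muscle form of subunit 7A, had 17.9, 16.1 and 10.4 TPM and made 11.4%, 7.64% and 4.48% of the 3 Cox7a genes. The ranges of both shares overlapped between fractions. In microglia, astrocytes and neurons they were 2.66% to 11%, 1.26% to 5.64% and 0.78% to 3.04% for Cox6a2. For Cox7a1 they were 2.53% to 26.2%, 4.2% to 16.4% and 2.67% to 5.64%. Neither Cox6a2 nor Cox7a1 was called in any comparison of fractions, whereas Cox6a1 and Cox7a2 were called in both comparisons of microglia. Cox7a2l, an assembly factor for supercomplexes that belongs to the same family, kept a share of 43.0%, 36.8% and 40.5%, and its ranges in the 3 fractions overlapped. Cox6b2, Cox7b2, Cox8b and Cox8c, forms known from testis or muscle, had fraction medians of 0.387 to 6.26 TPM and between 0 and 30 counts a library. At this depth no difference between fractions was detectable for any of those that were tested.

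**Figure D3:**
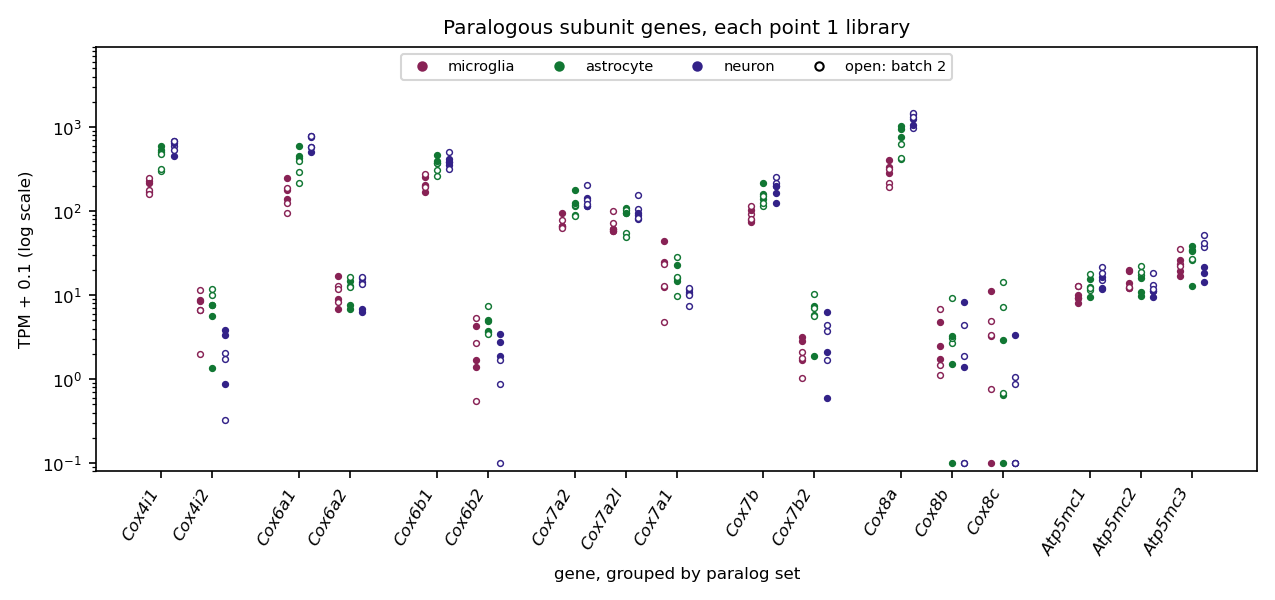
TPM of common and tissue-restricted isoforms and of the 3 genes for ATP synthase subunit c, plus 0.1 on a log axis, with 6 libraries per fraction as points, open for batch 2. The common forms Cox4i1, Cox6a1 and Cox8a step up from microglia to neurons, and no library exceeds 14.1 TPM for Cox4i2, Cox6b2, Cox7b2, Cox8b or Cox8c.

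In complex V, 17 of 18 genes were lower in microglia than in neurons, with a median of -1.18, and 9 were lower than in astrocytes, with a median of -0.77. The catalytic core genes Atp5f1a and Atp5f1b, for subunits alpha and beta, differed from neurons by -1.15 and -1.21. Neither was called against astrocytes. Atp5me, subunit e of the membrane part, which helps ATP synthase form dimers, had the smallest p of all members in both comparisons of microglia. It had 13.4, 15.8, 17.7, 20.1, 11.8 and 8.81 CPM in microglia and 46.2, 20.1, 61.8, 38.1, 57.6 and 23.9 CPM in astrocytes. In neurons it had 56.0, 51.6, 57.4, 74.8, 48.0 and 56.0 CPM, above every microglia library. The difference was -2.01 ± 0.26 (SE) against neurons and -1.52 ± 0.25 against astrocytes, with adjusted p-values of 4.1e-06 and 0.00013 (edgeR).

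The peripheral stalk genes Atp5po and Atp5pd differed from astrocytes by -1.28 and -1.16. Atp5pb, also of the stalk, differed by -0.67, with an adjusted p of 0.060 that became 0.035 with the pool as a block (edgeR). Atp5if1, the inhibitor that blocks ATP hydrolysis by the synthase, was lower in astrocytes than in neurons by -1.23 ± 0.32 (SE; adjusted p = 0.011, edgeR). Its CPM was 67.8 to 274 in astrocytes and 257 to 636 in neurons, and 73.9 to 200 in microglia. Of its exon bases, 69.6% are shared with the annotated gene Gm12999 and 47.9% of those of Atp5po are shared with other genes, and the counting let a read count for each gene it overlaps, so these levels are uncertain.

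Subunit c, which forms the rotor ring, is encoded by 3 genes that give the same mature protein. Atp5mc1, Atp5mc2 and Atp5mc3 made 20.6%, 31.3% and 47.3% of their summed TPM in microglia, by medians, and 26.9%, 22.9% and 49.8% in neurons. These shares depend on the annotated exon lengths used, 4912, 1675 and 2181 bases. By CPM, Atp5mc1 lay above Atp5mc2, with medians of 18.1 and 9.42 in microglia and 43.15 and 11.7 in neurons. Atp5mc1 was lower in microglia than in neurons by -1.21 and in astrocytes than in neurons by -0.69, while Atp5mc2 differed by -0.30 and -0.12 and was not called. Atp5mc2 was the 1 complex V gene not called between microglia and neurons.

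Complex IV relative to complex V was also lowest in microglia within each pool. The ratio of their summed CPM was 0.552 to 0.814 in microglia, 0.711 to 1.16 in astrocytes and 0.934 to 1.55 in neurons. Microglia were lowest in all 6 pools. Their range lay below that of neurons but overlapped the batch 2 astrocyte libraries, at 0.711, 0.782 and 0.752 with vehicle, clozapine and risperidone. In microglia and astrocytes the ratio was lower in batch 2 than in batch 1 with every treatment. Both sums include subunits of many lengths, so the ratio compares libraries and not the amounts of the complexes.

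Other genes of mitochondrial respiration were lower in microglia too, to be read against the 18.8% of all genes lower than in neurons and the 6.84% lower than in astrocytes; in the 5 lists 0 genes were higher than in neurons. Of 36 complex I nuclear subunits, 35 were lower than in neurons, with a median of -1.35, and 31 were lower than in astrocytes, with a median of -1.02. Ndufb11 and Ndufb8 differed from neurons by -1.94 and -2.06. Of 39 assembly factors of complexes II to V, 26 were lower than in neurons and 9 than in astrocytes, with medians of -0.77 and -0.45. Of 17 tricarboxylic acid cycle enzymes, 15 and 8 were lower. Of 15 carriers and channels, 10 and 4 were lower, including Slc25a4, the adenine nucleotide translocator, at -1.89 and -1.33. Of 12 regulators, 6 were lower than in neurons, including Ppargc1a, the coactivator PGC-1alpha, at -1.46. Against astrocytes Ppargc1a was lower by -1.10, and Pprc1, a related coactivator, was higher by 0.87.

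In the astrocyte fraction the members differed by batch. Of 49 tested, 24 were lower in batch 2 and 0 higher, where 3.6% of the 30990 genes tested were lower and 2.11% higher (edgeR, treatment and batch as terms). Leaving out 1 library gave 0 to 33 calls, with 0 without either vehicle library. Total-count scaling gave 10, all lower, with a median of -0.37, where 1.05% of all genes were lower. The median was -0.83, beside 0.14 for all genes, and 40 members were lower in batch 2 in all 3 treatments, against 22.2% of all genes. By treatment the median was -0.79 with vehicle, -0.46 with clozapine and -1.16 with risperidone. The calls comprised 10 genes of complex IV, 9 of complex V, 4 of complex III and Cycs, and 0 of complex II.

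Cox8a led, with the CPM values given above: 288, 263 and 375 in batch 1 against 79.2, 142 and 86.2 in batch 2, which do not overlap. Its difference was -1.60 ± 0.30 (SE; adjusted p = 0.00048, edgeR). Uqcrh, the hinge protein of complex III, had 105, 142 and 125 CPM in batch 1 and 44.9, 51.8 and 45.3 CPM in batch 2, again without overlap, a difference of -1.36 ± 0.26 (SE). Cox6a1, Cox7a2l, Cox7c and Cox7a2 of complex IV differed by -1.40, -1.30, -1.22 and -1.19. Atp5mj and Atp5mk, small proteins attached to the ATP synthase membrane part, differed by -1.33 and -1.18. Atp5f1a and Sdha, at -0.28 and -0.59, were not called.

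Neither of the other fractions gave a call by batch (edgeR), where 0.137% of all genes were higher and 0.196% lower in neurons and 2.85% and 1.41% in microglia. In neurons 38 of 48 members were higher in batch 2, where 45.3% of all genes were, and the members' median was 0.26. At an unadjusted p under 0.05, 12 members were higher, where 12.8% of all genes were. In microglia the median was -0.10, with 1 member higher and 5 lower at an unadjusted p under 0.05, as were 7.85% and 6.94% of all genes. DESeq2 called 2 members in neurons and 0 in microglia. The batch difference itself differed between astrocytes and neurons in 42 members, all more negative in astrocytes, where 8.51% of all genes were called in that direction and 7.21% in the other (edgeR, 18 libraries, a comparison added after the data were seen). With total-count scaling 2 members were called, both more negative in astrocytes. In that direction 0.35% of all genes were called, and 13.1% in the other. Relative to the median of all genes, the members' median was -1.76 with TMM factors and -1.75 with total counts. Between microglia and astrocytes 2 members were called, Uqcrh and Cox7a2l, both higher, as were 3.68% of all genes, with 1.14% lower. The members' median was 0.75 there, beside -0.34 for all genes, and 44 of 49 members lay above 0, where 40% of all genes did. At an unadjusted p under 0.05 (edgeR) there were 25 members, all higher, and 7321 of 37273 genes in either direction. Between microglia and neurons 0 were called, where 0.217% of all genes were higher and 0.419% lower, with 10 lower at an unadjusted p under 0.05 and 0 called by DESeq2.

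Marker levels moved with batch as well. The dissociation-response list was 1344 to 1714 CPM in batch 1 and 2641 to 3416 CPM in batch 2 in astrocytes, and 1141 to 1705 and 2200 to 3027 CPM in neurons, without overlap. In the astrocyte fraction the summed oligodendrocyte markers were 28460 to 44570 CPM in batch 1 and 7551 to 11430 CPM in batch 2, although 10 of the 14 markers were higher in batch 2 by their own difference. In the neuron fraction the summed oligodendrocyte markers were also lower in batch 2, at 16830 to 39250 CPM in batch 1 and 7919 to 9523 CPM in batch 2. The astrocyte markers summed to 16390 to 26000 CPM in batch 1 and 11980 to 12960 CPM in batch 2 in the astrocyte fraction. In neurons the neuronal markers were 6808 to 11360 CPM in batch 1 and 14630 to 16970 CPM in batch 2. Their part in the batch differences was not tested. The labels do not say what the batches differ in besides their animals.

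**Figure D4:**
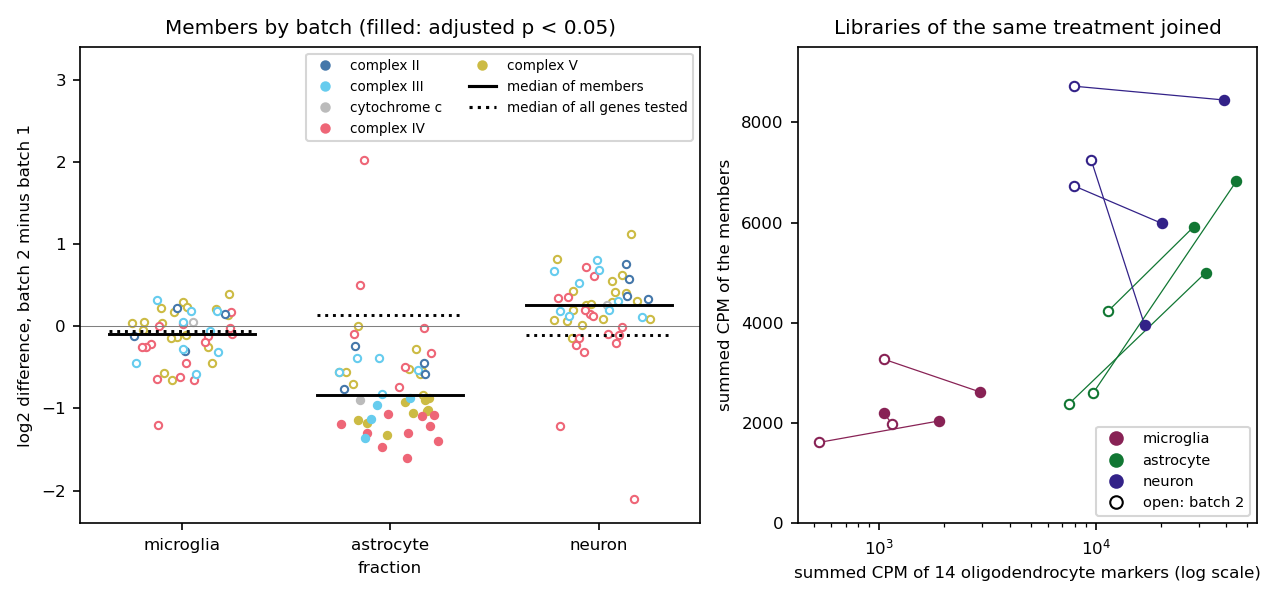
Left, log2 difference of batch 2 from batch 1 for each member in the 3 fractions, filled where called, with the median of the members as a line and that of all genes tested as a dotted line; right, summed CPM of the members against summed CPM of 14 oligodendrocyte markers (log axis) in 18 libraries, with lines joining the batches of a fraction and treatment and open points for batch 2. Astrocyte members centre on -0.83, and the batch 2 astrocyte libraries are lower on both axes. For each treatment, the batch 2 neuron library is lower in the oligodendrocyte markers but higher in the members.

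The complex I list moved with batch in astrocytes too, with 15 of 36 genes lower and a median of -0.76, led by Ndufb9 at -1.62. Of the assembly factors 4 were lower, of the tricarboxylic acid cycle enzymes 1, and of the carriers and the regulators 0, out of 39, 17, 15 and 12 genes. Over all genes 3.6% were lower, so the count of the enzymes is near the background.

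No member was called for either drug in any fraction. The tests used the 6 libraries of a fraction, and called 0% of all genes in each of the 9 comparisons of treatments. The absence of calls was thus not particular to the members. With so few pools a group, a missing call does not show that there was no difference. Clozapine and risperidone were each compared with the same vehicle libraries and with each other, so the comparisons share samples and their values are given side by side.

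Clozapine libraries mostly held more of these transcripts than vehicle libraries of their batch. The summed level was 1.19 and 1.66 times that of vehicle in batch 1 and 2 in microglia, 1.18 and 1.77 times in astrocytes and 1.41 and 1.3 times in neurons. The median member differed by 0.41 in microglia, 0.47 in astrocytes and 0.32 in neurons. These medians ran from 0.31 to 0.57, 0.11 to 1.0 and 0.20 to 0.47 with 1 library left out. Above vehicle were 45 of 47, 47 of 49 and 47 of 48 tested members, where 48.8%, 46.8% and 47.1% of all genes were. Members share the same libraries, so such counts are not independent observations. In both batches 37, 39 and 43 members were higher, a pattern seen in 29.6%, 26.1% and 29.4% of all genes. At an unadjusted p under 0.05 there were 2, 1 and 0 members, all higher, where 1.12%, 0.458% and 0.228% of all genes were. With the batch as a block these became 13, 12 and 5 members, where 2.71%, 2.58% and 1.32% of all genes passed, and the smallest adjusted p over the members was 0.63. DESeq2 gave 2, 1 and 0 at an unadjusted p under 0.05 and called 0.

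Risperidone showed no common direction. Its summed level was 0.929 and 0.819 times that of vehicle in microglia, 1.36 and 1.09 times in astrocytes, and 0.661 and 1.08 times in neurons. The median member differed by -0.10, 0.33 and -0.21. With 1 library left out these medians ran from -0.31 to 0.039, -0.41 to 0.84 and -0.60 to -0.017. Above vehicle were 14 of 47, 45 of 49 and 11 of 48 members, where 51.2%, 49.4% and 49.8% of all genes were. With total-count scaling these became 31, 35 and 10 members above vehicle. In microglia 0 members had an unadjusted p under 0.05, in astrocytes 1, which was higher, and in neurons 3, all lower, where 0.342% of all genes were higher in astrocytes and 0.616% lower in neurons. With the batch as a block there were 1 higher and 1 lower in microglia, 1 in astrocytes and 8 lower in neurons, where 1.73% of all genes were.

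Clozapine against risperidone gave medians of 0.55 in microglia, 0.16 in astrocytes and 0.55 in neurons. The sign in astrocytes turned with 1 library left out, from -0.26 to 0.91. In microglia 12 members and in neurons 13 had an unadjusted p under 0.05, all higher with clozapine, where 2.09% and 1.26% of all genes passed. With the batch as a block there were 26 and 22 higher, where 6.27% and 3.79% of all genes were, and the smallest adjusted p was 0.13 in microglia and 0.54 in neurons. Within batches the median was 0.35 and 0.91 in microglia and 0.86 and 0.40 in neurons. In both batches 36 members were higher in each of these fractions, against 35.8% and 24.9% of all genes.

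Uqcr10, a small complex III subunit, had 14.4 and 8.89 CPM in vehicle microglia, 28.1 and 24.2 CPM with clozapine and 14.1 and 9.73 CPM with risperidone. Both clozapine libraries lay above the other 4, a difference from vehicle of 1.12 ± 0.36 (SE; adjusted p = 0.9999, edgeR). Uqcrh had 34.1 and 31.7 CPM with vehicle, 55.8 and 65.9 CPM with clozapine and 26.9 and 25.6 CPM with risperidone, again with both clozapine libraries highest. Its difference was 0.83 ± 0.30 (SE) from vehicle and 1.10 ± 0.30 from risperidone, with adjusted p-values of 0.9999 and 0.672 (edgeR).

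In astrocytes Atp5mc3, which encodes subunit c, had 13.6 and 17.2 CPM with vehicle, 46.4 and 26.7 CPM with clozapine and 44.9 and 19.4 CPM with risperidone. Both drugs lay above vehicle, by 1.22 ± 0.46 and 1.06 ± 0.45 (SE), and neither was called. In neurons Atp5mk had 45.4 and 40.5 CPM with vehicle, 63.0 and 54.8 CPM with clozapine and 18.5 and 24.5 CPM with risperidone. The 3 treatments did not overlap, and the difference of clozapine from risperidone was 1.45 ± 0.32 (SE; adjusted p = 1.0, edgeR).

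**Figure D5:**
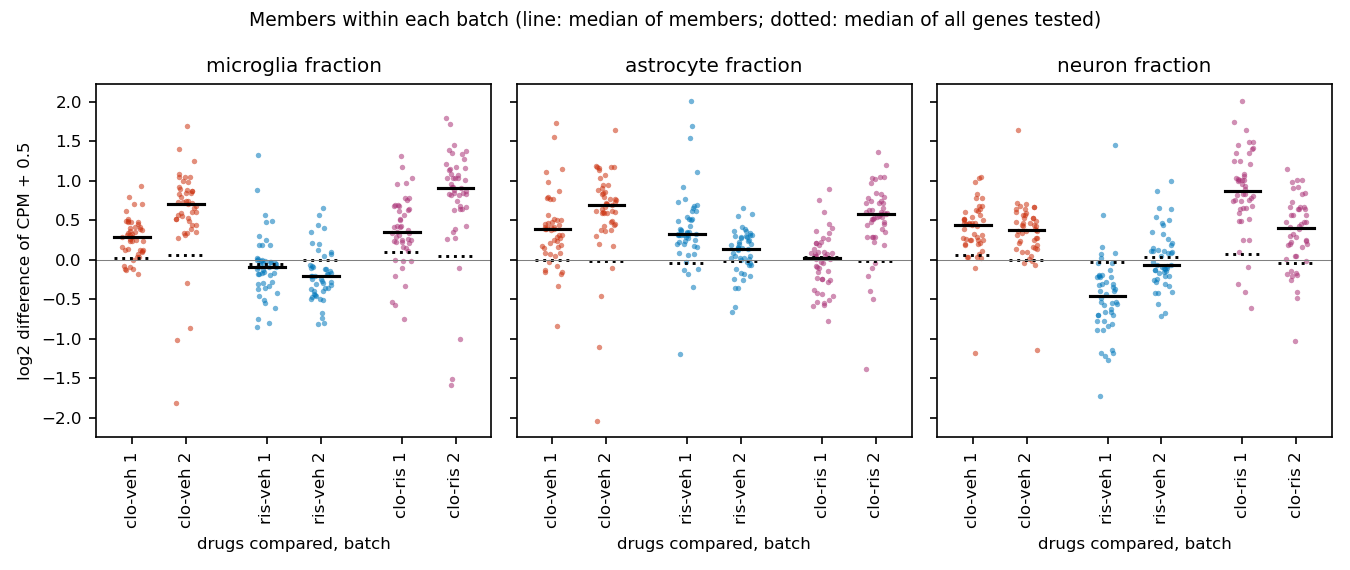
Log2 difference of each member between treatments, within each batch, for the 3 fractions; clo is clozapine, ris risperidone and veh vehicle, the number is the batch, the lines are medians of the members and the dotted lines medians of all genes tested. Clozapine minus vehicle has medians of 0.29 and 0.70 in microglia, 0.39 and 0.69 in astrocytes and 0.44 and 0.38 in neurons, while risperidone minus vehicle lies on both sides of 0.

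The drug differences were also compared between fractions, with the interaction terms of the 18-library fit. None of the 49 members was called in any of the 6 interactions, in which 0% to 0.00268% of all genes were called, and 0 had an unadjusted p under 0.05; DESeq2 called 0 as well. Between the clozapine effects in microglia and astrocytes the median was -0.03, and ran from -0.60 to 0.31 with 1 library left out. Of the members, 23 were above 0 and 26 below, where 54.6% of all genes were above. For the risperidone effects the median was -0.48 between microglia and astrocytes and 0.53 between astrocytes and neurons. Leaving out 1 library turned both signs, with ranges of -1.08 to 0.27 and -0.16 to 1.11, and total-count scaling moved the first to -0.087.

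Complex I subunits had clozapine medians of 0.28, 0.42 and 0.30 in microglia, astrocytes and neurons, with 0 called. Above vehicle were 33, 34 and 34 of 36, where 48.8%, 46.8% and 47.1% of all genes were. The neuronal markers also lay above vehicle with clozapine, with medians of 0.35, 0.60 and 0.31 in the 3 fractions, and in microglia the astrocyte and oligodendrocyte markers did so by 0.59 and 0.61. The dissociation-response list had clozapine medians of -0.51, 0.046 and -0.58 in microglia, astrocytes and neurons. Their part in the clozapine differences was not tested.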

How the data were processed

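RNA of 18 libraries was depleted of ribosomal RNA, primed with random hexamers and oligo-dT and sequenced in pairs, per the labels' protocols. Raw counts per gene were deposited by the authors in 1 table of all libraries and in 1 table per library. They were made with featureCounts 2.0.8 on build GRCm39, counting exons by gene, with a read counted for each gene it overlaps and no strand setting, per the file headers. FastQC is named in the submitters' processing notes, and an aligner was not given in the sources used here. Without strand, reads of overlapping or antisense genes cannot be told apart, and 16 members share exon bases with another gene. Library totals of both kinds of table were equal in 18 of 18 libraries, and 32 members were matched to an identifier by the same symbol and 18 by an older one. Replicates are 2 pools of animals per group, and the labels number them by batch.

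Genes were filtered with filterByExpr, scaled with TMM factors and tested with edgeR 4.0.16 in R 4.3.3 (quasi-likelihood, Benjamini-Hochberg over all genes tested, call at 0.05). Treatments and batches were tested within a fraction (6 libraries), fractions and interactions over 18. DESeq2 1.42.0, other scalings and filters and a replicate block were alternatives. The block was the batch for drugs within a fraction, and the pool for fractions and drug interactions. Differences within a batch or pool are on the log2(CPM + 0.5) scale. Same-batch libraries of a fraction deviated together. Their correlations were 0.099 to 0.142 in microglia, 0.16 to 0.45 in astrocytes and 0.15 to 0.44 in neurons. The labels give the number as the batch, so the batch block counts as a pairing within a fraction. Between fractions, the batch 2 minus batch 1 differences correlated by -0.15 to 0.083 with vehicle. With clozapine this was -0.034 to 0.12, and with risperidone -0.39 to 0.029. Fractions of a pool thus did not clearly deviate together, and the pool block rests on the design alone. The fits had 3 residual degrees of freedom within a fraction and 9 over all libraries. The scripts were tested on simulated data, with every gene given the common dispersion of its fit. For clozapine against vehicle, 1%, 0% and 0% of 2-fold changes were called in microglia, astrocytes and neurons. Of 4-fold changes, 22%, 0% and 1% were called. For microglia against neurons, 7% of 2-fold and 83% of 4-fold changes were called, and for batch in astrocytes 0% and 4%. In the data, the batch test in astrocytes called 24 of 49 members, with a median of -0.83. The simulated rates thus need not hold for the members. The members, the lists and the comparison of batch differences were chosen with earlier results of these data known. Genes named were the isoform sets, for each comparison the 3 (fractions) or 2 (drugs, batches) with the smallest p in each direction and called ones up to 10, and 2 called genes a direction of the other lists; other members named were chosen for their role after their values were seen. Promoters were taken from RefSeq (GRCm38.p6), where 37 members had an entry. Library depth ran from 4714468 to 13391163 counts. Not every gene chosen in this way is reported here.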

Additional observations from a re-analysis of the deposited data

Results flagged for a closer look

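Cox7a2l stood apart in 1 library. Its level in the microglia fraction was 63.3 CPM in clozapine batch 2, against 29.6 to 40.8 CPM in the other 5 microglia libraries, and the gap to the nearest took 0.667 of the whole range. Such gaps were looked for in 69 sets of 6 libraries, and chance alone gives about 1 in 20.

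The difference between batches differed between fractions by a test of the difference itself (edgeR, 18 libraries). In 42 members it was more negative in astrocytes than in neurons, and in 2 members, Uqcrh and Cox7a2l, it was higher in microglia than in astrocytes. Between microglia and astrocytes 3.68% of all genes were called higher, so the count of 2 calls is near the background. The members' median there was 0.75, beside -0.34 for all genes.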

How the results depend on the processing

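With 2 pools per group, calls between fractions and batches depended on single libraries, and drug comparisons gave no call. Leaving out 1 library in turn gave 10 to 30 calls for microglia against astrocytes (11, 14 and 10 without the batch 1 astrocyte library of vehicle, clozapine and risperidone), 31 to 41 for microglia against neurons and 0 to 14 for astrocytes against neurons (0 without astrocyte vehicle replicate 2). For batch it gave 0 to 33 in astrocytes (0 without either vehicle library, 6 without either risperidone library), 0 to 4 in microglia and 0 to 10 in neurons. The drug comparisons and interactions had 0 calls in all such runs. The vehicle libraries alone, which are fewer, gave 0 calls for microglia against astrocytes, 12 against neurons and 0 for astrocytes against neurons.

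With total-count scaling, batch calls numbered 10 in astrocytes and 1 in microglia, all lower, where 1.05% and 1.69% of all genes were. Calls for the batch difference numbered 2 between astrocytes and neurons, both lower, where 0.35% of all genes were. Between microglia and astrocytes there was 1, higher, where 1.645% of all genes were. This last count became 11 with no low-count filter and 6 with DESeq2. In neurons the batch gave 4 calls with no filter, 2 with DESeq2 and 8 with all 18 libraries in 1 fit. The cause was not tested. The median of all genes moved with the scaling from 0.62 to 1.13 for microglia against neurons and from 0.46 to 0.93 for astrocytes against neurons; relative to it the members' median was -1.77 and -1.68, and -0.87 and -0.88. The replicate block gave 28, 41 and 9 calls in the 3 comparisons of fractions and 0 in those of drugs; it gained Atp5pb, Cycs, Sdhc and Uqcrb between microglia and astrocytes, Sdhc between microglia and neurons, and Atp5mk, Cox4i1, Cox6c and Cox7c between astrocytes and neurons, lost Cox4i2 in both comparisons with neurons, and turned Cox8c to -0.24 between microglia and astrocytes. DESeq2 lost Sdhb, Uqcrb and Atp5mg between microglia and neurons and gained Atp5pb and Cycs between microglia and astrocytes.

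The members' medians turned with 1 library left out for risperidone in microglia and astrocytes, clozapine against risperidone in astrocytes, batch in microglia (-0.12 to 0.10) and all 6 drug interactions. Single genes named here whose direction turned were all uncalled, with ranges of -1.17 to 2.01 (including -0.24 and -0.04) for Cox8c between microglia and astrocytes, -0.29 to 2.802 between astrocytes and neurons, and -3.01 to 3.07 for clozapine against risperidone in astrocytes. The others were Cox7a1 between microglia and neurons (-0.22 to 0.57), Cox4i2 for clozapine in microglia (-1.72 to 0.41) and for batch in astrocytes (-0.17, -0.16 and up to 0.87), Atp5mf for risperidone in microglia (-0.028 to 0.69) and Atp5pf in astrocytes (-0.47 to 1.43). Likewise, Atp5mk ran from -0.25 to 1.25 for clozapine against risperidone in astrocytes and Cox6a2 from -0.71 to 0.020 in neurons, and for risperidone in neurons Atp5mj ran from -0.20 to 0.81 and Cox7b from -0.17 to 0.60.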
